A study of Homo sapiens with 12 samples.

Results

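The clustered histone genes were examined in HLE-B3, an immortalized cell line derived from human lens epithelium. The members were the protein-coding genes of the raw count table whose symbol starts with HIST1H, HIST2H, HIST3H or HIST4H, which gave 71 of 58735 genes. Of these, 55 belong to the HIST1 cluster on chromosome 6, 12 to HIST2 and 3 to HIST3 on chromosome 1, and 1 is HIST4H4 on chromosome 12. By product they comprise 6 H1, 17 H2A, 18 H2B, 15 H3 and 15 H4 genes. RNA was sequenced in 4 groups of 3 biological replicates: WT cells and Atg7KO cells, each untreated (0 h) or treated with 200 μM H2O2 for 12 h. Atg7KO cells were made with CRISPR/Cas9 against ATG7, a gene needed to form autophagosomes, and were grown from single picked clones after puromycin selection. Which clone was sequenced is not given in the sources used here, so the knockout and the clone cannot be told apart, nor can H2O2 and 12 h in culture.

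Histones H2A, H2B, H3 and H4 form the protein core around which DNA is wound, and H1 binds the linker DNA between the cores. Most clustered histone genes have no introns and are transcribed while DNA is replicated. Their mRNAs usually end just after a short stem-loop, which is bound by SLBP, in place of a poly(A) tail. Some of these genes also give polyadenylated transcripts that run past the stem-loop, mainly in cells that have stopped dividing or are differentiating. The 6 members listed for such transcripts, from general knowledge, are HIST1H1C, HIST1H2AC, HIST1H2BD, HIST1H2BJ, HIST1H2BK and HIST2H2BE. Whether the libraries were made from poly(A)-selected RNA is not given in the sources used here, so the levels below count the mRNAs that the library preparation kept.

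The stem-loop was searched in the annotated transcripts of GENCODE release 29 (GRCh38), as a run of 16 bases with a paired stem of 6 bases that starts with GG and a loop of 4 bases that starts with TTT. The first strand of the stem had to go on with C or T only and end in T, and G-T pairs counted as paired. The stem-loop was found in the transcripts of 31 of the 71 members (43.7%) and of 78 of all 19922 protein-coding genes (0.392%). The sequences of 4 members that lead the comparisons are shown, with the loop in capitals. HIST1H2AC and HIST2H2BE hold the same 16 bases.
HIST1H2AC, chr6:26124669-26124684, plus strand: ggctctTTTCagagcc
HIST1H2BD, chr6:26158587-26158602, plus strand: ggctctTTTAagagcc
HIST1H4I, chr6:27139654-27139669, plus strand: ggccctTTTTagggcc
HIST2H2BE, chr1:149886188-149886203, minus strand: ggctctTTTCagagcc
The transcript that holds this element ran 1128 bases past it in HIST1H2AC, 1729 bases in HIST2H2BE, 212 bases in HIST1H4I and 39 bases in HIST1H2BD. HIST1H2BD has another annotated transcript, of 789 bases, in which the element was not found and which gives the gene its far end. By the transcript that holds the element and runs farthest past it, 22 members went more than 100 bases beyond it and 9 ended within 100 bases of it, HIST1H2BD among them. Of the 40 members without it in an annotated transcript, 34 were annotated as coding sequence alone, HIST1H2BK and HIST1H1C among them, so reads past the coding sequence were not counted for them.

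Promoter sequence (RefSeq, GRCh38.p14, 250 bases before to 50 after the start) was matched for 65 members. The octamer ATTTGCAT, searched on both strands, stood in 24 of them (36.9%) against 1.77% of all 35116 promoters, in 11 of 16 H2A and 13 of 17 H2B promoters and in 0 of the 6 H1, 13 H3 and 13 H4 promoters. CCAAT stood in 55 of 65 (84.6%) against 34.6% of all, and TATAAA in 44 of 65 (67.7%) against 11.5%. AAACACA, a box known from H1 genes, stood in 6 of 6 H1 promoters, in 9 of the 65 (13.8%) and in 5.64% of all promoters. Each motif was searched on both strands, none is contained in another although matches can overlap, and promoters of divergent partners overlap, so they are not independent. The promoters of the 3 members with the strongest bearing on the results are printed on their own strands, with every match to these motifs in capitals.
HIST1H2BK, chr6:27146806-27147105, minus strand: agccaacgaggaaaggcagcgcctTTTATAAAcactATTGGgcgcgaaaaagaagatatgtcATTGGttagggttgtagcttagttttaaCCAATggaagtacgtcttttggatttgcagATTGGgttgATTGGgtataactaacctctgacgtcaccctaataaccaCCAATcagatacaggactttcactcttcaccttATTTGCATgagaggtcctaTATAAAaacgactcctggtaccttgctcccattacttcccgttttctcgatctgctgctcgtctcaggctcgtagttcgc
HIST1H2AC, chr6:26123922-26124221, plus strand: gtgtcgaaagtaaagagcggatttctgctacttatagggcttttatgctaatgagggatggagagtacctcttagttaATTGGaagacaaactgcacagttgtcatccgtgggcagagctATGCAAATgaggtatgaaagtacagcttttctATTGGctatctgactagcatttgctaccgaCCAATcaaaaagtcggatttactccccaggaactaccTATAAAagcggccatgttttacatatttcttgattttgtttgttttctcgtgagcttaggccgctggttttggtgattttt
HIST1H1C, chr6:26056421-26056720, minus strand: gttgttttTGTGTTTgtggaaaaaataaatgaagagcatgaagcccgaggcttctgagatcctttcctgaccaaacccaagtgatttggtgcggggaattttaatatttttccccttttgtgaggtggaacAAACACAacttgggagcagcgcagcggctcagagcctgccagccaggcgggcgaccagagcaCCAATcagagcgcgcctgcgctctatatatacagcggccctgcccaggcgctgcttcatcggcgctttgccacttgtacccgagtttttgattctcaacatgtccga
The HIST1H2BK and HIST1H2AC windows hold the octamer upstream of a TATAAA, and that of HIST1H1C holds AAACACA and CCAAT without the octamer. The HIST1H2BK window lies wholly between the annotated starts of HIST1H2BK and its divergent partner HIST1H2AH.

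Between 15602183 and 17659496 reads were counted on genes per library. ATG7 mRNA was not lower in the libraries labelled Atg7KO (3.55 ± 0.205 FPKM untreated and 2.19 ± 0.137 with H2O2, SD, n = 3) than in those labelled WT (2.55 ± 0.313 and 1.96 ± 0.0411 FPKM), so these counts do not check the label. FPKM are fragments scaled to the length of the gene model and to the library's total. Of 12 lens epithelial markers only CDH2 and SIX3 had a mean above 1 FPKM over all libraries, and the defining CRYAA and FOXE3 were at or near 0. Of 7 fibroblast markers 5 were above 1 FPKM, with COL1A1 at 238.8 to 645.1 FPKM, and of 4 blood cell markers 0 were. One library, untreated Atg7KO replicate 1, stood apart. Its log2 counts had a mean Pearson r of 0.976 across genes with its group, against 0.986 to 0.996 for the other 11 libraries. Where leaving it out changed the call of a member, the change is stated, and the medians include it.

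The members together received 13646 of 204771744 reads, 0.00666% of the total, with 909 to 1501 reads per library. Reads were concentrated on few genes: 14 members had 0 reads in all 12 libraries. CPM are reads scaled to the total of the library, and counting error alone allows these 14 up to 0.0147 CPM (3 reads over all libraries). That bound does not cover reads left uncounted because they fit several genes, and how such reads were treated is not given. Among the 14, HIST1H2AM, HIST1H3D, HIST1H2AD and HIST2H3PS2 are overlapped by another gene model on the same strand. A further 19 members had 1 to 9 reads, 19 had 10 to 99 and 19 had 100 or more. The top 6 members by reads held 65.3% of the reads and the top 12 held 86.9%. Of the 71 members, 10 had a mean above 1 FPKM. The 4 genes listed as testis-specific, HIST1H1T, HIST1H2AA, HIST1H2BA and HIST3H3, had 3 reads in total.

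By length-normalised level, HIST1H2BK (ENSG00000197903, chr6:27146418-27146798, minus strand), which encodes an H2B, led with a mean of 38.4 FPKM over the 12 libraries. The linker histone gene HIST1H1C (ENSG00000187837, chr6:26055787-26056428, minus strand) followed with 16.03 FPKM. HIST1H4I (H4) had 4.17, HIST1H2BD (H2B) 3.99, HIST1H2AC (H2A) 3.54, HIST1H2BJ (H2B) 3.01, HIST1H3H (H3) 2.34, HIST1H2AI (H2A) 1.97, HIST2H2BE (H2B) 1.65 and HIST1H2BO (H2B) 1.46 FPKM. On chromosome 6, HIST1H4I (ENSG00000276180) lies at chr6:27138588-27139881, HIST1H2BD (ENSG00000158373) at chr6:26158146-26171349, HIST1H2AC (ENSG00000180573) at chr6:26124145-26139116, HIST1H2AI (ENSG00000196747) at chr6:27808199-27808701 and HIST1H3E (ENSG00000274750) at chr6:26224199-26227473, all on the plus strand. HIST2H2BE (ENSG00000184678) lies on the minus strand at chr1:149884459-149886652. HIST1H2BD is overlapped by LARP1P1 on its own strand and by AL353759.1 on the other, so its reads are less certain. All 6 genes listed for polyadenylated transcripts were among these 10, and they held 61.5% of the members' reads. Of the 12 listed histone genes outside the clusters, some were above HIST1H2BK on the same scale and others below it: H3F3B had group means of 105.6 to 169.9 FPKM, H2AFZ of 90.2 to 147.1 FPKM and H2AFX of 67.0 to 128.4 FPKM, while H1F0 had 7.51 to 15.5 FPKM and CENPA 4.86 to 24.8 FPKM.

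The annotated 3′ end and the level differed together. Members annotated beyond the stem-loop had a median level of 0.289 FPKM, those annotated to it 0.138 FPKM and those without it in the annotated transcripts 0.0499 FPKM, where the list also held HIST1H2BK and HIST1H1C. A poly(A) signal, AATAAA within the last 40 bases of a transcript, stood in 15 of the 22 members annotated beyond the stem-loop and in 4 of the 9 annotated to it. It was not compared in the 40 others, of which 34 were annotated as coding sequence alone. FPKM divides by the length of the model, which is longer in the first of these sets.

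Members lie in 12 divergent pairs whose starts are at most 500 bases apart, and partners differed in level in several of them. HIST1H2BK had 38.4 FPKM and HIST1H2AH, 331 bases away, 0.0992 FPKM, from 2998 and 8 reads. HIST1H2AC had 3.54 FPKM and HIST1H2BC, 219 bases away, 0.951 FPKM. HIST1H2BJ had 3.01 and HIST1H2AG 0.893 FPKM, HIST2H2BE 1.65 and HIST2H2AC 0.682 FPKM, and HIST1H2AI 1.97 and HIST1H2BL 0.262 FPKM. The H2B gene was the higher partner in the HIST1H2BK, HIST1H2BJ and HIST2H2BE pairs and the H2A gene in the HIST1H2AC and HIST1H2AI pairs. In the HIST1H2BG and HIST1H2AE pair the levels were close, at 0.487 and 0.629 FPKM. HIST1H2AJ and HIST1H2BM had 4 and 3 reads, and HIST1H2AA and HIST1H2BA had 0.

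The summed level of the 71 members, in CPM, was 57.5 ± 4.30 in untreated WT cells and 70.4 ± 1.44 in WT cells with H2O2 (SD, n = 3). In Atg7KO cells it was 76.6 ± 12.0 untreated and 62.4 ± 2.55 with H2O2. All WT libraries with H2O2 (69.1 to 72.0) lay above all untreated WT libraries (52.6 to 60.1). In Atg7KO cells the order was the opposite: the untreated libraries had 89.9, 73.4 and 66.6 and those with H2O2 60.2 to 65.2. The highest value, 89.9, was that of replicate 1, and the others of its group still lay above those with H2O2. With TMM scaling, which the tests used, the Atg7KO groups overlapped, since untreated replicate 3 had 64.4 and H2O2 replicate 1 had 67.0.

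H2B genes carried 46.5% of the members' reads, H1 genes 16.5%, H2A genes 15.5%, H4 genes 13.1% and H3 genes 8.38%. In WT cells H2B went from 23.2 ± 1.25 to 34.7 ± 1.15 CPM with H2O2 and H4 from 6.67 ± 1.49 to 9.94 ± 0.765 CPM, while H2A had 12.0 ± 1.99 and 9.48 ± 0.729 CPM. In Atg7KO cells H2A went from 13.3 ± 0.838 to 6.56 ± 0.857 CPM and H3 from 8.35 ± 1.10 to 3.94 ± 0.629 CPM, and H2B had 32.3 ± 2.21 and 34.1 ± 2.85 CPM. The libraries of the compared groups did not overlap for H2B and H4 in WT cells or for H2A and H3 in Atg7KO cells, with or without TMM scaling. These sums were not tested, and single genes weigh in them. Over all libraries HIST1H2BK held 2998 of 6352 H2B reads and HIST1H4I 1103 of 1793 H4 reads. HIST1H2AC held 1223 of 2112 H2A reads and HIST1H3E 421 of 1143 H3 reads. With H2O2 in WT cells the log2 fold change was above 0 for 8 of 9 tested H2B genes. Of 3 tested H4 genes it was above 0 for HIST1H4I alone. In Atg7KO cells it was below 0 for 2 of 3 H2A and 2 of 2 H3 genes.

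A gene entered the test when its counts passed a filter on low values, and 19 members did so in at least 1 comparison, 15 of them in all 4. They are the 19 members with 100 or more reads, and the others are described by their levels alone. A member passed when edgeR's quasi-likelihood test gave a Benjamini-Hochberg adjusted p under 0.01 over all genes tested. The 4 comparisons share groups, so their counts are not independent of each other. In bulk RNA, a change in the share of replicating cells and a change of RNA per cell cannot be told apart.

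In WT cells H2O2 was followed by higher HIST1H2BK, HIST1H4I, HIST1H2BD, HIST2H2BE and HIST1H2BG and lower HIST1H2AI, 5 and 1 of the 18 members tested. That is 27.8% higher and 5.56% lower, and among all 15913 genes 30.9% were higher and 30.1% lower, so the share of higher members was near that of all genes. The median log2 fold change of the members was 0.10 and that of all genes -0.01. HIST1H2BG, at 0.863 FPKM at most on average, is named because it passed, after its values were seen, and it lost the call in 8 of 14 alternatives.

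HIST1H2BK had 22.6, 20.3 and 20.8 FPKM in untreated WT libraries and 37.3, 43.6 and 43.0 FPKM in those with H2O2. The groups did not overlap, and the log2 fold change was 0.95 (standard error, SE, 0.12, adjusted p = 5.5e-10). HIST1H4I had 2.44, 2.94 and 1.70 FPKM untreated and 5.24, 5.92 and 4.27 FPKM with H2O2. Its groups did not overlap either, with a log2 fold change of 1.11 (SE 0.19, adjusted p = 1.2e-06). Both passed in all 14 alternative settings of this comparison. HIST1H4I and HIST1H2AI were also past a log2 fold change of 1 in size with a mean above 1 FPKM in a group.

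HIST1H2BD had 2.31, 3.12 and 1.87 FPKM untreated and 4.20, 5.22 and 3.67 FPKM with H2O2, without overlap (log2 fold change 0.83, adjusted p = 0.0018). It did not pass without untreated replicate 3, without H2O2 replicate 2, by DESeq2 or with the gene length correction. HIST2H2BE had 1.49, 1.68 and 1.51 FPKM untreated and 2.28, 2.25 and 2.31 FPKM with H2O2, without overlap (log2 fold change 0.54, adjusted p = 0.0082), and it passed in 4 of 14 alternatives and in none that left out a library. HIST1H2AI had 3.31, 0.973 and 3.58 FPKM untreated and 0.821, 0.904 and 1.27 FPKM with H2O2. Untreated replicate 2 lay within the H2O2 range, and the fall (log2 fold change -1.37, adjusted p = 0.0045) was lost in 8 of 14 alternatives. These were the fits without untreated replicate 1 or 3 or H2O2 replicate 1 or 2, DESeq2, the fit of all 12 libraries and both limma fits of log2 FPKM.

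Among the other members with the highest levels, HIST1H1C had 14.9 ± 1.23 FPKM untreated and 16.6 ± 1.51 FPKM with H2O2, and the groups overlapped (log2 fold change 0.15, adjusted p = 0.27). HIST1H2AC had 3.87 ± 0.731 and 3.16 ± 0.510 FPKM, also with overlap (adjusted p = 0.11), and HIST1H2BJ had 2.19 ± 0.632 and 3.17 ± 0.493 FPKM (adjusted p = 0.054). HIST1H3H, at 2.20 ± 0.297 and 2.20 ± 0.271 FPKM, had a log2 fold change of -0.01 with a standard error of 0.23.

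In Atg7KO cells H2O2 was followed by lower HIST1H2AC and HIST1H3E, 2 of 17 members tested (11.8%), and 0 were higher. Among all 15475 genes 12.4% were lower and 13.6% higher, so the share of lower members was near that of all genes. At an unadjusted p under 0.05 there were 1 higher and 8 lower members, and DESeq2 called 1 higher and 2 lower. Shares of all genes at that threshold or by DESeq2 are not given, so these counts cannot be set against the shares above. The members' median log2 fold change was -0.67, and that of all genes -0.03.

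HIST1H2AC had 5.67, 4.88 and 4.76 FPKM in untreated Atg7KO libraries and 1.65, 2.45 and 1.94 FPKM in those with H2O2. The groups were far apart, with a log2 fold change of -1.35 (SE 0.18, adjusted p = 0.0013), which was lost (adjusted p = 0.011) only without H2O2 replicate 3 among the 14 alternatives. HIST1H3E, an H3 gene, had 1.52, 1.55 and 1.31 FPKM untreated and 0.458, 0.523 and 0.452 FPKM with H2O2. It fell by 1.61 on the log2 scale (SE 0.19, adjusted p = 0.00069) and passed in all 14 alternatives.

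HIST1H2BK, which rose in WT cells, had 45.7, 29.3 and 29.2 FPKM in untreated Atg7KO libraries and 58.7, 51.1 and 59.2 FPKM with H2O2. The groups did not overlap, but the difference did not pass (log2 fold change 0.70, adjusted p = 0.023). Untreated replicate 1 was the high one, and without it HIST1H2BK passed (0.93, adjusted p = 3.0e-16). The same library decided HIST1H1C, which had 31.3, 13.4 and 13.1 FPKM untreated and 13.6, 13.4 and 13.1 FPKM with H2O2. Its log2 fold change was -0.52 with that library and 0.00 without it, and neither passed. Without it 2 members passed as higher, HIST1H2BK and HIST1H4I, and 4 as lower, HIST1H2AC, HIST1H3E, HIST1H2BD and HIST1H2BO. Shares of all genes in that fit are not given, so these counts cannot be set against those of the main fit.

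Between the lines with H2O2, Atg7KO cells had higher HIST1H2BK and lower HIST1H2AC, HIST2H2BE, HIST1H2BG and HIST2H2BF than WT cells, 1 and 4 of 16 members tested (6.25% higher). Among all 15909 genes 27.7% were higher and 27.9% lower, and the members' share of lower genes was again near this. The members' median log2 fold change was -0.31 and that of all genes -0.00. HIST1H2BK, at 56.3 ± 4.51 FPKM in Atg7KO and 41.3 ± 3.50 FPKM in WT libraries, had a log2 fold change of 0.44 (SE 0.09, adjusted p = 0.00015). It passed whichever library was left out.

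HIST1H2AC had 2.01 ± 0.405 FPKM in Atg7KO and 3.16 ± 0.510 FPKM in WT libraries, without overlap (log2 fold change -0.66, adjusted p = 0.0027). HIST2H2BE had 1.45 ± 0.329 and 2.28 ± 0.0280 FPKM, without overlap (log2 fold change -0.65, adjusted p = 0.0030). HIST1H2BG and HIST2H2BF, named because they passed, were below 1 FPKM in each group, with log2 fold changes of -1.20 and -1.94. Of the 14 alternatives the call was lost in 11 for HIST1H2BG, 6 for HIST1H2AC, 5 for HIST2H2BE and 4 for HIST2H2BF. HIST2H2BF had 11, 15 and 16 reads in the WT libraries and 2, 6 and 3 in the Atg7KO libraries, and it is overlapped by another gene model on the same strand and FCGR1A on the opposite one. In a fit of all 12 libraries 0 of the members passed, and DESeq2 called HIST1H2BK alone, as did the fit without Atg7KO replicate 1. The correction for gene length called HIST1H2BK and HIST1H2AI as higher and HIST2H2BF as lower. Both limma fits of log2 FPKM also called HIST1H2AI as higher, and they called HIST1H1C as lower. HIST1H2AI had 2.22 ± 0.760 FPKM in Atg7KO and 0.999 ± 0.240 FPKM in WT libraries, without overlap. In the main test it did not pass (log2 fold change 1.13, adjusted p = 0.015).

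In untreated cells 1 of 17 members passed, HIST1H3E (5.88%), which was higher in Atg7KO cells, and 0 were lower. Among all 15357 genes 4.42% were higher and 3.28% lower. The members' median log2 fold change was 0.40 and that of all genes 0.006. At an unadjusted p under 0.05 there were 5 higher and 0 lower members, and DESeq2 called 2 higher and 0 lower. The shares above do not apply to these counts, and those of all genes at that threshold or by DESeq2 are not given. HIST1H3E had 0.664, 0.649 and 0.736 FPKM in WT libraries against 1.52, 1.55 and 1.31 FPKM in Atg7KO libraries, with a log2 fold change of 1.09 (SE 0.18, adjusted p = 0.0075). It did not pass without any one of the WT libraries or without Atg7KO replicate 2 or 3.

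Without Atg7KO replicate 1, which stood apart, 4 members passed in untreated cells: HIST1H3E, HIST1H2BD, HIST1H2BJ and HIST1H2BK. The share of all genes that passed in that fit is not given, so this count cannot be set against the shares of the main fit. HIST1H2BD had 2.43 ± 0.633 FPKM in WT and 5.69 ± 0.541 FPKM in Atg7KO libraries, without overlap, and its log2 fold change of 1.22 had an adjusted p of 0.012 with all libraries and 7.7e-07 without that one. HIST1H2BJ, at 2.19 ± 0.632 and 4.09 ± 0.296 FPKM without overlap, had 0.89 and adjusted p values of 0.042 and 0.0023.

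Whether the H2O2 responses of the lines differed was tested over all 12 libraries. HIST1H2BD passed, with a difference (Atg7KO minus WT response) of -1.54 on the log2 scale (SE 0.31, adjusted p = 0.0036), 1 lower and 0 higher of 19 members (5.26%). Among all 16856 genes 7.02% were higher and 7.01% lower. At an unadjusted p under 0.05 there were 1 higher and 6 lower members, and DESeq2 called 0 higher and 2 lower. The shares above do not apply to these counts either, and the matching shares of all genes are not given. HIST1H2BD had 2.43 FPKM untreated and 4.36 FPKM with H2O2 in WT cells, and 5.69 and 3.48 FPKM in Atg7KO cells. The call was lost without untreated WT replicate 1 or 3, WT H2O2 replicate 1 or 2, or Atg7KO H2O2 replicate 2 or 3, with adjusted p values of at most 0.013.

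HIST1H2AC had a difference of -1.05 (adjusted p = 0.011) and HIST1H2BJ of -1.19 (adjusted p = 0.023), and neither passed. Both passed without untreated Atg7KO replicate 1. HIST1H2BK, whose groups did not overlap in either line, had a difference of -0.26 with a standard error of 0.22 (adjusted p = 0.40). The median difference of the 19 members was -0.72, against -0.03 for all genes, with untreated Atg7KO replicate 1 included.

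The 6 members listed for polyadenylated transcripts were all tested in each comparison. With H2O2 the 3 that passed in WT cells were all higher (median log2 fold change 0.53), and the 1 that passed in Atg7KO cells was lower (median -0.60). Of the other members 2 were higher and 1 lower of 12 tested in WT cells (median -0.04), and the 1 that passed of 11 in Atg7KO cells was lower (median -0.75). Over all genes 30.9% were higher in WT cells and 12.4% lower in Atg7KO cells, and 1 of 6 and 1 of 11 were near the latter share. The sum of the 6 was 32.9 ± 2.55 CPM in untreated and 43.2 ± 2.32 CPM in H2O2-treated WT cells, and 46.7 ± 9.07 and 41.5 ± 2.29 CPM in Atg7KO cells, where untreated replicate 1 had 57.1 CPM and the others of its group 42.3 and 40.7.

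The read share of short genes differed between the treatments. Coding genes under 1000 bases other than the members took 1.81 to 2.63% of reads in untreated libraries, with the highest share in Atg7KO replicate 1, and 1.10 to 1.35% in those with H2O2. The members' gene models are not all under 1000 bases: HIST1H2BK has 381, HIST1H1C 642, HIST1H4I 1294, HIST1H2AC 1668 and HIST1H3E 2679 bases. With a correction for gene length 3 members were higher and 4 lower with H2O2 in WT cells, 1 and 2 in Atg7KO cells. Shares of all genes with this correction are not given. The part of gene length in the results was not tested beyond this correction.

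The shares to read the following lists against are those of all genes, 30.9% higher and 30.1% lower with H2O2 in WT cells and 13.6% and 12.4% in Atg7KO cells. Among histone genes outside the clusters in WT cells with H2O2, 5 of 11 tested were higher and 3 lower, among them H3F3B (log2 fold change 0.68, adjusted p = 1.2e-20), H2AFZ (0.35, adjusted p = 9.0e-10), H2AFX (-0.20, adjusted p = 0.00021) and the centromeric CENPA (-1.36, adjusted p = 8.5e-13). In Atg7KO cells the 3 of 10 that passed were lower, among them CENPA (-2.35, adjusted p = 6.4e-05) and H2AFX (-0.94, adjusted p = 0.0016). The H2AFX call was lost without any 1 of the H2O2 libraries. With H2O2, Atg7KO cells had 2 higher and 7 lower of 11 than WT cells, with H1F0 higher (0.70, adjusted p = 2.1e-08). Those are 18.2% and 63.6%, against 27.7% and 27.9% of all genes. In the interaction the 5 of 11 that passed were below 0 (45.5%, against 7.01% of all genes).

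The machinery of histone mRNA was given by lists. Of 21 genes of histone transcription and 3′ end processing, 9 were higher and 6 lower with H2O2 in WT cells and 6 higher and 1 lower in Atg7KO cells, and the share of lower genes in WT cells (28.6%) was near that of all genes. SLBP, the stem-loop binding protein, had 47.7 ± 2.01 FPKM in untreated and 70.4 ± 1.62 FPKM in treated WT cells (log2 fold change 0.56, adjusted p = 4.5e-14). In Atg7KO cells SLBP had 69.7 (replicate 1), 42.2 and 43.2 FPKM untreated and 63.7, 67.8 and 63.3 FPKM with H2O2. NPAT, the cyclin E-CDK2 substrate that activates histone genes, differed with H2O2 by 0.28 on the log2 scale in WT (adjusted p = 0.00025) and by 0.64 in Atg7KO libraries (adjusted p = 0.0049). The NPAT call was lost in 4 of 14 alternatives in WT and 5 of 14 in Atg7KO cells, 4 of them from leaving out untreated replicate 3 or any 1 of the H2O2 libraries.

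Of 17 histone chaperones tested 1 was higher and 7 lower with H2O2 in WT cells and the 4 that passed in Atg7KO cells were lower. Between the lines with H2O2, 6 were higher and 7 lower in Atg7KO cells (35.3% and 41.2%, against 27.7% and 27.9% of all genes). NASP was among the higher ones (log2 fold change 0.17, adjusted p = 7.8e-05), a call lost in 2 of 14 alternatives. ASF1B and CHAF1A, which hand newly made H3 and H4 to replicated DNA, were lower in Atg7KO than in WT cells both with H2O2 (log2 fold changes -1.27 and -0.74, adjusted p = 7.4e-20 and 8.1e-14) and untreated (-0.59 and -0.53, adjusted p = 0.0071 and 0.0057). Both genes lie on chromosome 19. The untreated calls were lost in 8 of 14 alternatives for ASF1B and 7 for CHAF1A, among them leaving out any library but Atg7KO replicate 1. Of 25 S phase genes 10 were higher and 7 lower with H2O2 in WT cells, and 5 were higher and 3 lower in Atg7KO cells, with shares of lower genes (28.0% and 12.0%) near those of all genes. PCNA, the sliding clamp of the replication fork and a p53 target, rose from 171.0 ± 9.72 to 534.5 ± 5.95 FPKM in WT cells (log2 fold change 1.64, adjusted p = 6.5e-34) and from 218.6 ± 72.5 to 540.5 ± 17.8 FPKM in Atg7KO cells (1.30, adjusted p = 0.0032). The latter call was lost without any 1 library other than untreated replicate 1, with adjusted p values of at most 0.018, and without that replicate the difference was 1.60. Of 8 genes of nuclear polyadenylation and the exosome, 2 were higher and 4 lower in WT cells, and the 1 that passed in Atg7KO cells was lower.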

How the data were processed

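Total RNA of the 12 HLE-B3 libraries was prepared by the authors with the NEBNext Ultra kit. The deposited raw counts are whole reads per gene, counted by the authors and not normalized. Per the authors' methods, deposited FPKM scale the counts to gene length and library size. The submitters' processing notes name HISAT2 2.0.5, featureCounts 1.5.0-p3 and GRCh38. Strand setting and treatment of reads with several positions are not given in the sources used here. Near-identical histone genes and the 16 members overlapped by another gene model (4 of those tested) can therefore share or lose reads.

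Counts were tested with edgeR 4.0.16 (filterByExpr with a minimum count of 10, TMM, robust quasi-likelihood fit) in R 4.3.3, with 6 libraries per comparison and all 12 for the interaction, and p values were adjusted by Benjamini-Hochberg over all genes. Alternatives used DESeq2 1.42.0, RLE scaling, no filter, all 12 libraries, a replicate block, a gene length offset (lowess, span 0.3), limma 3.58.1 on log2 of FPKM plus 1 or 0.1, and each library left out in turn. Scripts were tested on simulated counts. Depth was 15602183 to 17659496 reads per library, and for genes with few reads the count itself limits precision.

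Named were the 8 members with the highest mean FPKM, the 3 highest and 3 lowest members that passed in each comparison at a mean above 1 FPKM in a group, the members listed for polyadenylated transcripts, those that passed the interaction, and 12 genes of the other lists (SLBP, NPAT, H2AFZ, H2AFX, H3F3A, H3F3B, H1F0, CENPA, ASF1B, CHAF1A, NASP and PCNA). The members and lists were chosen with earlier results of these data known. Replicate numbers come from the labels.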

Additional observations from a re-analysis of the deposited data

Results flagged for a closer look

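The H2O2 responses of the Atg7KO and WT lines differed by edgeR's test of the interaction in HIST1H2BD and in 4 of the other genes that the text names. The difference, Atg7KO minus WT, was -1.54 for HIST1H2BD (adjusted p = 0.0036), -1.06 for H2AFZ (adjusted p = 0.0039), -0.74 for H2AFX (adjusted p = 0.0030), -0.99 for CENPA (adjusted p = 0.0054) and -0.68 for ASF1B (adjusted p = 0.00077), each on the log2 scale. Of 19 alternatives the call was lost in 6 for HIST1H2BD, 9 for H2AFZ, 5 for H2AFX, 9 for CENPA and 0 for ASF1B, nearly all from leaving out 1 library (adjusted p of at most 0.019). Without untreated Atg7KO replicate 1 all 5 passed, with -0.77 for H2AFZ, -0.58 for H2AFX, -0.84 for CENPA and -0.61 for ASF1B. HIST1H2BD was higher with H2O2 in 3 of 3 WT libraries than in any untreated WT library, and lower with H2O2 in 3 of 3 Atg7KO libraries than in any untreated Atg7KO library.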

How the results depend on the processing

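The number of members that passed depended on the processing in every comparison. For H2O2 in WT cells it was 6, DESeq2 gave 2, and leaving out 1 library gave 2 (without H2O2 replicate 2) to 6. For H2O2 in Atg7KO cells it was 2, the fit of all 12 libraries gave 4, and leaving out 1 library gave 1 (without H2O2 replicate 3) to 6 (without untreated replicate 1). For Atg7KO against WT cells with H2O2 it was 5, DESeq2 gave 1, all 12 libraries 0, the gene length correction 3, and leaving out 1 library 1 (without Atg7KO replicate 1) to 6. For untreated cells it was 1. DESeq2, no filter on low counts, and limma on log2 FPKM plus 1 and plus 0.1 each gave 2, all 12 libraries 3, the gene length correction 0, and leaving out 1 library 0 to 4 (without Atg7KO replicate 1). For the interaction it was 1, DESeq2, no filter and limma with 0.1 each gave 2, limma with 1 gave 3, and leaving out 1 library gave 0 to 3. The causes were not tested, and shares of all genes in these settings are not given. Deviations of same-numbered libraries from their group means correlated at -0.043 to 0.0975 across genes, so the numbers were not taken to pair the libraries. With the replicate number as a block the number that passed was 0 in untreated cells and within 1.5 times of the main number in the other comparisons. The block also lost the calls of NPAT with H2O2 in Atg7KO cells, SLBP between the lines with H2O2, and ASF1B and CHAF1A untreated.

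Without the 6 members listed for polyadenylated transcripts the summed level was 24.7 CPM in untreated and 27.3 CPM in H2O2-treated WT cells, and 29.9 and 20.9 CPM in Atg7KO cells. With 1 library left out the sum of all members was 56.2 to 60.01, 69.7 to 71.1, 70.0042 to 81.7 and 61.0 to 63.5 CPM in these groups.

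Of the values for single genes, 23 changed sign, none of them for a member that had passed. With the gene length correction the log2 fold change was -0.048 for HIST1H1C with H2O2 in WT cells, 0.056 for HIST1H2BG with H2O2 in Atg7KO cells, and 0.036 for HIST1H3H and 0.049 for SLBP, which had passed at -0.12, between the lines with H2O2. RLE scaling gave 0.0057 for HIST1H3H in WT cells, and for HIST1H2BG in Atg7KO cells the replicate block gave 0.0015 and limma with 0.1 gave 0.083. With 1 library left out, values for H2O2 in WT cells ran from -0.12 to 0.078 for HIST1H3H. In Atg7KO cells they ran from -0.74 to 0.0011 for HIST1H1C, -0.21 to 0.25 for HIST1H2AI, -0.021 to 0.30 for HIST2H2BE and -0.56 to 0.59 for HIST1H2BG. Between the lines with H2O2 they ran from -0.11 to 0.12 for HIST1H4I and -0.35 to 0.014 for HIST1H3H, and untreated from -0.16 to 0.57 for HIST1H1C and -0.36 to 0.78 for HIST1H2BG. Genes with few reads are limited by counting error.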

Other observations

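Among histone genes outside the clusters, H2AFY2, which encodes a macroH2A, was the one that separated the lines most. It had group means of 2.69 and 3.59 FPKM in WT cells and 0.0764 and 0.131 FPKM in Atg7KO cells (untreated and with H2O2), with log2 fold changes of -5.07 untreated (adjusted p = 0.00020) and -4.76 with H2O2 (adjusted p = 1.7e-14). It was named after its values were seen, and whether this belongs to the knockout or to the sequenced clone was not tested.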
